A study of Mus musculus with 19 samples.

Results

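The 9 genes described here encode parts of the protein network under the red cell membrane: the spectrin chain Sptb, the anchor Ank1, Epb41, Epb42, the adducins Add1, Add2 and Add3, the tropomodulin Tmod1 and the actin bundler Dmtn. They were chosen by name, as the array probes whose RefSeq accession belongs to these symbols, out of 20659 named genes on the array, and each gene was represented by its brightest probe. RNA came from 7 sorted bone marrow populations of C57BL/6 mice aged 8 to 12 weeks, with no genetic change or treatment named in the labels of any group, and was measured on 19 single-colour Agilent arrays, 1 per sample. The erythroid path was sampled as LSK cells (negative for lineage markers, positive for Kit and Sca-1, 3 arrays), common myeloid progenitors (CMP, 3 arrays, sorted for high CD34 at low CD16/32), progenitors of megakaryocytes and red cells (MEP, 3 arrays, with CD34 low as well), early erythroblasts (Ter119-positive, large, high CD44, 2 arrays) and late erythroblasts (Ter119-positive, small, intermediate CD44, 3 arrays). The granulocyte branch was sampled as progenitors of granulocytes and macrophages (GMP, 2 arrays, high in both CD34 and CD16/32) and Gr1-positive granulocytes (3 arrays). The labels do not say whether replicates came from separate or pooled animals, so the p-values rest on the spread among samples of a group, part or all of which may be technical.

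The red cell keeps its shape through a mesh of spectrin tetramers laid against the inner face of the membrane. The spectrin ends meet at short actin filaments, where the Epb41 protein, adducin, tropomodulin and dematin hold the junction together, and the middle of the mesh is tied by ankyrin and the Epb42 protein to the anion exchanger Slc4a1 in the membrane. Inherited loss of these parts is a known cause of spherocytic or elliptocytic red cells.

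Levels are log2 signals relative to the 75th percentile of the same array, so each level is compared only between cell types for 1 probe and never between genes. That percentile was 50 to 80.9 signal units on the erythroblast arrays and 266 to 606 on the others, and no spot was saturated. A spot that the scanner software did not flag as well above background gives only an upper bound. The sorted populations were checked with marker lists. The 6 erythroid markers were all well above background on every erythroblast array, with a summed signal of 11900 to 16000 times the array's 75th percentile in early and 19500 to 21800 times in late erythroblasts, against 56 to 77.3 in MEP. The 5 LSK markers were all below that limit on both early erythroblast arrays. The 7 granulocyte markers summed to 4680 to 5230 in granulocytes, against 2500 to 2650 in GMP. The erythroid, megakaryocyte and LSK sums overlapped between CMP and MEP. Erythroid markers summed to 68.8 to 86.3 in CMP, the 8 megakaryocyte markers to 88.9 to 120 in CMP and 97.1 to 114 in MEP. The LSK markers summed to 41.5 to 45.3 in CMP and 37.7 to 48.6 in MEP. The granulocyte markers did not overlap, at 541 to 936 in CMP and 311 to 452 in MEP.

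**Figure D1:**
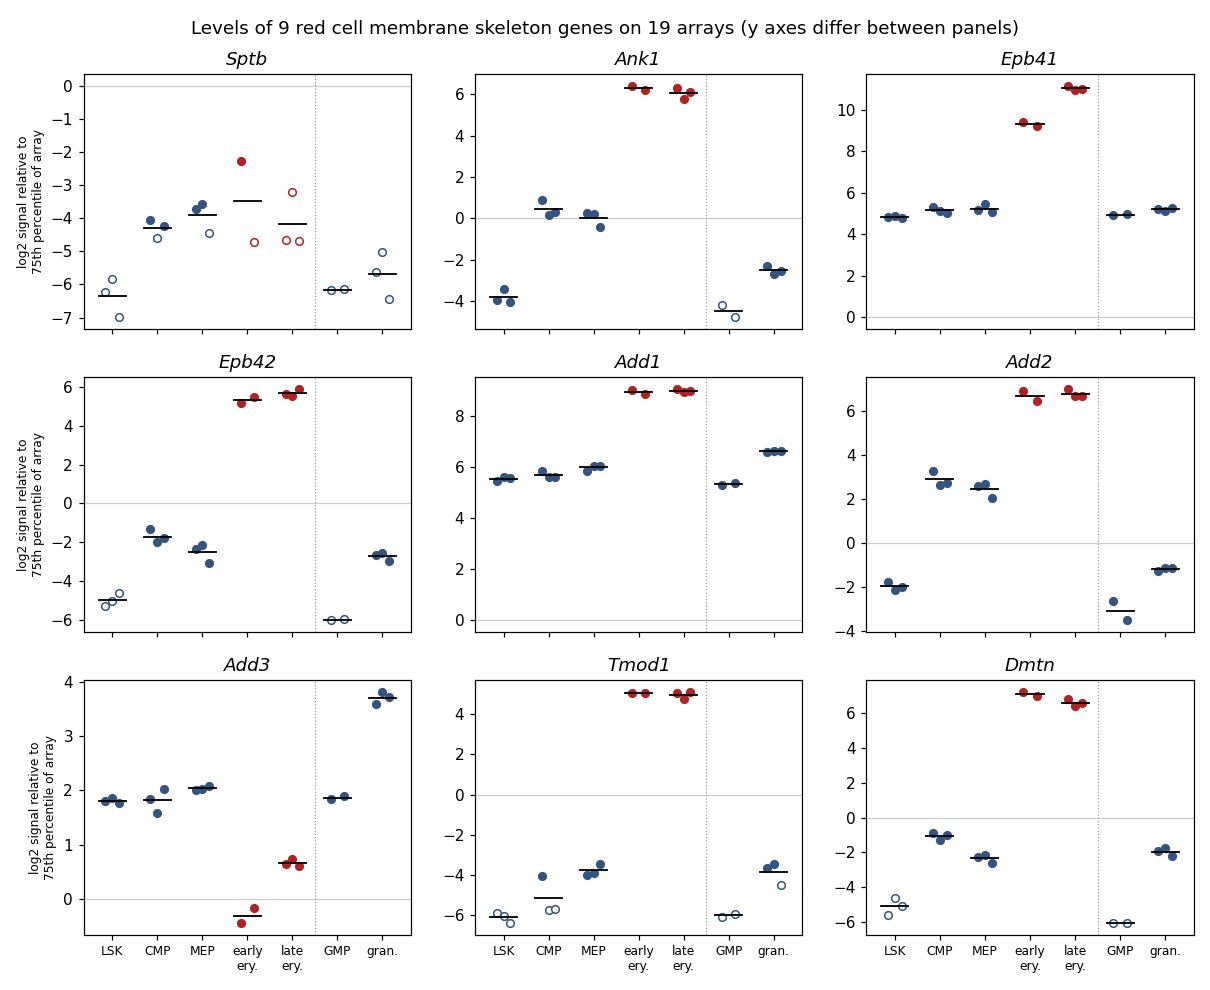
Level of each of the 9 genes on every array (y axis: log2 signal relative to the array's 75th percentile; x axis: cell type; red, erythroblasts; blue, other cells; filled points, well above background; open points, not; black line, mean). For 7 genes the 5 erythroblast arrays lie above all 14 others, for Add3 they lie below them, and for Sptb the ranges overlap.

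The step into the erythroblast stage carried the main change. In early erythroblasts, compared with MEP, Ank1, Epb41, Epb42, Add1, Add2, Tmod1 and Dmtn rose and Add3 fell. These were all 8 of the 9 genes that could be tested, beside 81.5% of all 22791 features called in the same comparison, 43.6% higher and 37.8% lower, so the count alone says little and the sizes are given below. The median difference over all features was 0.22. All tests are limma fits over 19 arrays with Benjamini-Hochberg adjustment over all features tested. In bulk RNA, fewer cells of a type and less RNA per cell cannot be told apart.

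The junction gene Dmtn, whose product bundles actin, read 7.25 and 7.01 in early erythroblasts, against -2.25, -2.17 and -2.61 in MEP. The difference was 9.47 ± 0.24 (SE; n = 2 and 3; 708-fold; limma adjusted p = 2.1e-13). Late erythroblasts stayed in the same region at 6.82, 6.43 and 6.59, while both GMP arrays, at -6.09 and -6.06, were not well above background. Tmod1, which caps the slow-growing end of the short actin filaments, behaved alike in the erythroblasts: 5.05 and 5.06 in early erythroblasts, against -3.99, -3.89 and -3.43 in MEP, a difference of 8.83 ± 0.42 (SE; 454-fold; limma adjusted p = 5.8e-11). Tmod1 was not well above background on any LSK or GMP array, and on 1 of 3 CMP arrays it was.

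Of the genes at the ankyrin end of the mesh, Epb42, a transglutaminase relative without enzyme activity that binds Slc4a1 and ankyrin, read 5.16 and 5.49 in early erythroblasts, against -2.36, -2.15 and -3.08 in MEP. The groups lay far apart, by 7.85 ± 0.27 (SE; 231-fold; limma adjusted p = 2.8e-12). Ank1, the ankyrin that links spectrin to Slc4a1, read 6.40 and 6.20 in early erythroblasts, against 0.25, 0.20 and -0.40 in MEP. Its difference was 6.28 ± 0.28 (SE; 77.8-fold; limma adjusted p = 3.0e-11). Neither gene passed the test between late and early erythroblasts: the difference was 0.37 ± 0.27 for Epb42 (adjusted p = 0.25) and -0.24 ± 0.28 for Ank1 (adjusted p = 0.47).

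The adducins, which cap the fast-growing end of actin filaments and recruit spectrin to it, moved in opposite directions. Red cell adducin is known as a pair of the Add1 and Add2 products, and Add3 is the form found widely outside red cells. Add2 read 6.89 and 6.45 in early erythroblasts, against 2.60, 2.67 and 2.05 in MEP, a difference of 4.23 ± 0.26 (SE; 18.7-fold; limma adjusted p = 1.2e-09). Add1 read 9.0 and 8.84 in early erythroblasts, against 5.86, 6.05 and 6.05 in MEP, a difference of 2.93 ± 0.11 (SE; 7.63-fold; limma adjusted p = 7.2e-12). Add3 read -0.45 and -0.17 in early erythroblasts, against 2.0, 2.03 and 2.09 in MEP, and fell by 2.36 on the log2 scale (SE 0.13; 5.12-fold lower; limma adjusted p = 4.1e-10). The Add3 arrays of the erythroblasts did not overlap those of any other cell type, since the highest of 5 was 0.74 and the lowest of the other 14 was 1.58.

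The direction of Add1 depends on the scale. Relative to the spike-in control spots, the median of all features in early erythroblasts, compared with MEP, was -3.27, and Add1 was then at -0.56 (adjusted p = 0.37), Add2 at 0.73 (adjusted p = 0.26) and Epb41 at 0.58 (adjusted p = 0.35), so none of these 3 passed the test. All members are therefore described relative to the rest of the RNA on the array.

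Epb41, whose product fastens spectrin to actin, was the gene that kept rising. It read 9.42 and 9.21 in early erythroblasts, against 5.18, 5.45 and 5.07 in MEP, a difference of 4.08 ± 0.13 (SE; 16.9-fold; limma adjusted p = 1.4e-12). Late erythroblasts reached 11.16, 10.95 and 11, above both early erythroblast arrays, by 1.72 ± 0.13 (SE; limma adjusted p = 1.1e-07). In late erythroblasts, compared with early ones, 2 of the 8 tested genes rose and none fell, beside 59.9% of all features called, 22.1% higher. The other gene was Add3, which read 0.64, 0.74 and 0.60 in late erythroblasts, against -0.45 and -0.17 in early erythroblasts (0.97 ± 0.13, SE; limma adjusted p = 1.8e-05). On the 2 slides that held both stages, Epb41 differed by 1.75 and 1.79 and Add3 by 1.1 and 0.77. With spike-in scaling neither passed, with Epb41 at 0.71 (adjusted p = 0.34) and Add3 at -0.04 (adjusted p = 0.97). Dmtn was at -0.51 ± 0.24 (adjusted p = 0.081), and passed as lower with normexp background correction (-0.67, adjusted p = 0.0013) and with spike-in scaling (-1.52, adjusted p = 0.028). Add1 was at 0.07 ± 0.11, Add2 at 0.10 ± 0.26 and Tmod1 at -0.10 ± 0.42, none of which passed.

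**Figure D2:**
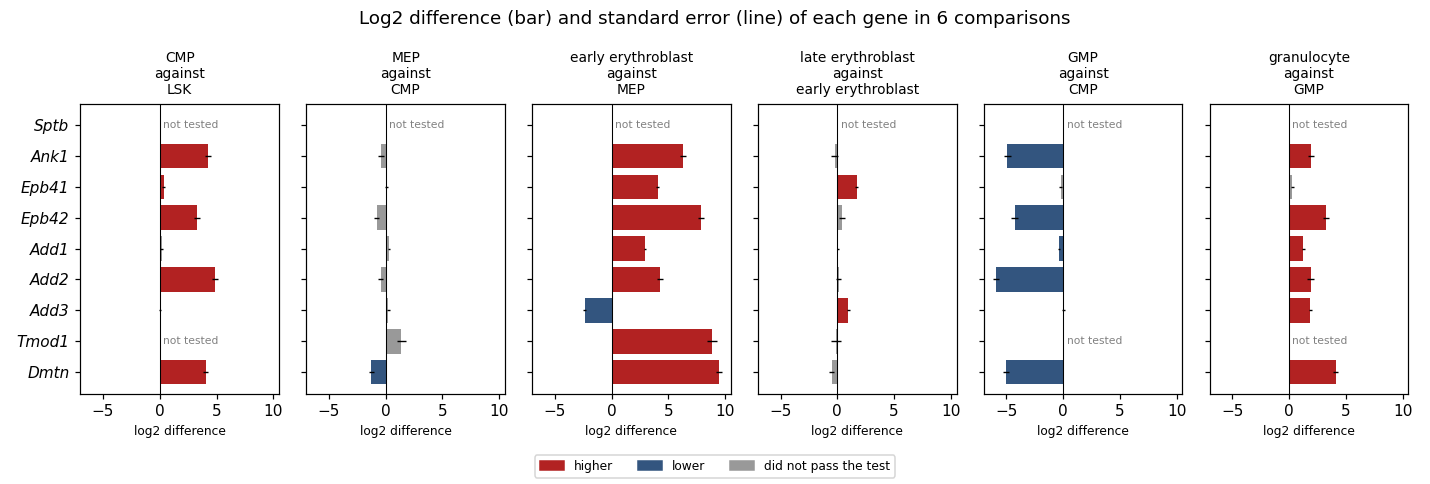
Log2 difference of each gene in 6 comparisons of neighbouring stages (bar: difference of means, line: standard error; red, higher; blue, lower; grey, did not pass the test). The bars reach 9.47 for Dmtn in early erythroblasts against MEP, while between late and early erythroblasts only Epb41 (1.72) and Add3 (0.97) are coloured. Bars of Dmtn and Epb42 against LSK cells, and of Ank1, Epb42 and Dmtn where GMP enter, rest on signals not well above background.

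In late erythroblasts, compared with MEP, the same directions held for each of the 8 tested genes, 7 higher and Add3 lower, beside 85.9% of all features called, 39.4% higher and 46.5% lower. The MEP arrays are shared with the comparison above. The differences were 8.96 ± 0.22 for Dmtn, 8.73 ± 0.37 for Tmod1, 8.22 ± 0.25 for Epb42, 6.04 ± 0.25 for Ank1, 5.80 ± 0.12 for Epb41, 4.33 ± 0.24 for Add2 and 3.00 ± 0.10 for Add1 (log2 ± SE). Add3 stood at -1.38 ± 0.12, a smaller fall than the -2.36 of early erythroblasts. With spike-in scaling, Add1 passed as lower, at -1.50 (limma adjusted p = 0.0064), and Add2 was at -0.17, against a median of all features of -4.78. On the erythroblast arrays the 6 macrophage markers summed to 8.15 to 8.87 in early and 11.1 to 19.3 in late erythroblasts, against 1.11 to 1.3 in MEP, and the 7 granulocyte markers to 245 to 804 in early and 1120 to 1180 in late erythroblasts, against 311 to 452 in MEP. Their part in these results was not tested.

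Sptb, the spectrin chain that binds ankyrin, could not be followed. Its only probe was well above background on 5 of 19 arrays, among them 1 of the 5 erythroblast arrays, and it entered no comparison. It read -2.26 and -4.71 in early erythroblasts and -4.67, -3.22 and -4.68 in late erythroblasts, against -3.71, -3.57 and -4.46 in MEP. These groups overlap. In LSK cells it read -6.24, -5.85 and -6.99, with no array well above background.

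A second pattern appeared earlier, at the step from LSK cells to CMP. In CMP, 4 genes, Add2, Ank1, Dmtn and Epb42, were well above their LSK levels, and Epb41 rose slightly. These were 5 of 7 tested genes, all higher, beside 36.7% of all features called, 23.2% higher. Add2 read 3.29, 2.63 and 2.75 in CMP, against -1.74, -2.10 and -2.00 in LSK cells, a difference of 4.84 ± 0.24 (SE; 28.6-fold; limma adjusted p = 3.6e-09). Ank1 read 0.89, 0.16 and 0.31 in CMP, against -3.94, -3.40 and -4.04 in LSK cells (4.25 ± 0.25, SE; 19-fold; limma adjusted p = 1.8e-08). No array of the groups overlapped for either gene. The 8 megakaryocyte markers summed to 88.9 to 120 in CMP, against 40 to 43.1 in LSK cells, and the 6 erythroid markers to 68.8 to 86.3 in CMP, against 22.2 to 29.3 in LSK cells, and their part in these differences was not tested.

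Dmtn and Epb42 were not well above background on any LSK array, so only bounds are given. A bound sets the mean of the brighter group against, per array, the higher of the probe's own signal and the lowest signal that was well above background. It holds only for the background subtraction and scaling of the fit reported. With normexp background correction the log2 differences were smaller, at 1.92 for Dmtn and 1.33 for Epb42, and both still passed. Dmtn read -0.87, -1.27 and -1.01 in CMP, against -5.62, -4.63 and -5.07 in LSK cells, and was at least 16.6-fold higher (limma adjusted p = 7.9e-09). Epb42 read -1.34, -2.00 and -1.80 in CMP, against -5.29, -5.06 and -4.60 in LSK cells, and was at least 9.27-fold higher (limma adjusted p = 2.0e-07). Add1 (0.15 ± 0.10) and Add3 (0.01 ± 0.12) did not pass the test. Epb41 differed by 0.33 ± 0.12 (adjusted p = 0.042), a call that was lost without CMP replicate 1 (adjusted p = 0.17), without CMP replicate 2 (0.074) and without LSK replicate 1 (0.082), 2 (0.07) or 3 (0.11), and with quantile normalization the value was -0.10.

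Between MEP and CMP the genes moved little, and where they moved Dmtn was lower in MEP. It read -2.25, -2.17 and -2.61 in MEP, against -0.87, -1.27 and -1.01 in CMP, a difference of -1.29 ± 0.22 (SE; limma adjusted p = 0.0046). This was the only one of 8 tested genes that passed, beside 4.51% of all features called, 2.6% lower, and it was lower on each of 3 shared slides, by values from -0.90 to -1.60. When only the MEP and CMP arrays entered the fit, its adjusted p was 0.084. Epb42 was at -0.81 ± 0.25 (adjusted p = 0.083), and passed with slide as a fixed block (adjusted p = 0.04) or a random block (0.049). Tmod1 was at 1.39 ± 0.37 (adjusted p = 0.05, just above the limit), passed with slide as a random block (0.038) and was, without CMP replicate 1, at 1.94 with an adjusted p of 0.00092. That array read -4.05, against -5.74 and -5.67 on the other CMP arrays, which were not well above background. On the 3 shared slides Tmod1 differed by 0.06, 1.85 and 2.25. With normexp background correction it was at 0.30 and did not pass. Among the markers, 3 of 6 erythroid ones were lower in MEP than in CMP and none higher. Of the 8 megakaryocyte markers, 2 were higher in MEP and none lower. The part of these markers in the differences was not tested.

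Most of the genes that were higher in CMP than in LSK cells were lower in GMP than in CMP, with the CMP arrays shared by both comparisons. In GMP, compared with CMP, Add2, Dmtn, Ank1, Epb42 and Add1 fell, 5 of 7 tested genes, beside 18% of all features called, 8.49% lower. Add2 read -2.64 and -3.49 in GMP, against 3.29, 2.63 and 2.75 in CMP, and fell by 5.95 on the log2 scale (SE 0.26; 61.9-fold lower; limma adjusted p = 1.2e-09). Ank1, Dmtn and Epb42 were not well above background on either GMP array, and were at least 22.1-fold, 7.78-fold and 4.9-fold lower (limma adjusted p = 1.1e-08, 2.5e-09 and 4.1e-08). These bounds did not hold with normexp background correction, where the 3 genes passed at smaller log2 differences of -2.56, -1.63 and -1.08. Add1 was at -0.35 ± 0.11 (adjusted p = 0.044), a call lost when any 1 of the 5 arrays was left out, with adjusted p from 0.056 to 0.22. Epb41 (-0.22 ± 0.13) and Add3 (0.04 ± 0.13) did not pass. The megakaryocyte markers summed to 4.51 to 7.01 in GMP, against 88.9 to 120 in CMP, and the erythroid markers to 8.07 to 11.8 in GMP, against 68.8 to 86.3 in CMP, and their part was not tested here either.

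Set directly against GMP, MEP were higher in 6 of 8 tested genes and lower in none, beside 31.9% of all features called, 13.7% higher. Add2 was higher by 5.51 ± 0.26 (SE; 45.4-fold; limma adjusted p = 1.5e-09) and Add1 by 0.65 ± 0.11 (adjusted p = 4.0e-04). Against the GMP bound, Ank1 was at least 16.3-fold, Dmtn at least 3.18-fold, Epb42 at least 2.79-fold and Tmod1 at least 1.18-fold higher. With normexp background correction the log2 differences were smaller, at 2.17 for Ank1, 0.71 for Dmtn and 0.62 for Epb42, which still passed. Tmod1 was then at 0.08 (adjusted p = 0.75). Epb41 (0.29 ± 0.13, adjusted p = 0.11) and Add3 (0.18 ± 0.13, adjusted p = 0.35) did not pass.

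The erythroid factors Gata1, Klf1 and Tal1, which are known to act on many red cell genes, gave a frame for this order. In CMP, compared with LSK cells, Klf1 rose by 4.34 ± 0.27, Gata1 by 3.55 ± 0.19 and Tal1 by only 0.47 ± 0.16 on the log2 scale. None of the 3 was called between MEP and CMP, beside 4.51% of all features. In GMP, compared with CMP, Klf1 was at -5.13 ± 0.30, Gata1 at -4.20 ± 0.22 and Tal1 at -2.21 ± 0.18. In early erythroblasts, compared with MEP, Klf1 rose by 2.96 ± 0.30, Gata1 by 2.02 ± 0.22 and Tal1 by 3.2 ± 0.18. In late erythroblasts, compared with early ones, all 3 fell, with Klf1 at -1.15 ± 0.30, Gata1 at -0.97 ± 0.21 and Tal1 at -0.58 ± 0.17.

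In granulocytes, compared with GMP, 6 of 7 tested genes were higher and none lower, beside 66.6% of all features called, 27.8% higher. Add3 read 3.59, 3.82 and 3.72 in granulocytes, against 1.84 and 1.89 in GMP (1.85 ± 0.13, SE; 3.59-fold; limma adjusted p = 2.2e-08), and the granulocyte arrays were its highest of all. Add1 was higher by 1.27 ± 0.11 (adjusted p = 1.8e-07) and Add2, at -1.26, -1.12 and -1.14 in granulocytes against -2.64 and -3.49 in GMP, by 1.89 ± 0.27 (adjusted p = 1.7e-05). Dmtn was at least 4.12-fold, Ank1 at least 2.83-fold and Epb42 at least 2.41-fold higher than the GMP bound. Epb41 did not pass, at 0.27 ± 0.13 (adjusted p = 0.086). It passed as higher with quantile normalization (0.46, limma adjusted p = 0.0032) and with the percentile over detected probes (0.57, limma adjusted p = 0.00065). It also passed when only the groups compared entered the fit (limma adjusted p = 0.038).

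The signal of red cell markers moved with these genes in the granulocyte samples. The 6 erythroid markers, globin genes among them, summed to 573 to 614 in granulocytes, against 8.07 to 11.8 in GMP and 19500 to 21800 in late erythroblasts, all 6 were well above background on every granulocyte array, and the anion exchanger gene Slc4a1 was higher by 4.38 ± 0.24, while the blood group gene Icam4 was at -1.57 ± 0.25. The 6 macrophage markers summed to 87.1 to 90.5 in granulocytes, against 9.96 to 10.1 in GMP, and the 5 B cell markers to 31.4 to 33.2, against 14 to 16.7. Their part in the granulocyte levels of Ank1, Epb42, Dmtn, Add1, Add2 and Add3 was not tested. No slide held both granulocyte and GMP arrays, and with slide as a random block 6 genes were called. With normexp background correction Ank1 was at 0.39 (adjusted p = 0.12).

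In late erythroblasts, compared with granulocytes, 7 of 8 tested genes were higher and Add3 was lower, beside 82.5% of all features called, 38.7% higher and 43.8% lower. No slide held both groups, and with slide as a random block all 8 calls stood. Tmod1 differed by 8.81 ± 0.37, Dmtn by 8.58 ± 0.22, Ank1 by 8.56 ± 0.25, Epb42 by 8.43 ± 0.25, Add2 by 7.95 ± 0.24, Epb41 by 5.82 ± 0.12 and Add1 by 2.38 ± 0.10 (log2 ± SE). Add3 was at -3.05 ± 0.12 (8.28-fold lower). With spike-in scaling Add1 passed as lower, at -1.82 (limma adjusted p = 0.0011), against a median of all features of -4.33.

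The change along each path could be set against the other. The change from MEP to late erythroblasts minus that from GMP to granulocytes passed the test in all 8 tested genes, positive in 7 and negative in Add3, beside 72.2% of all features called, 36.8% positive and 35.4% negative. It was 5.53 ± 0.18 for Epb41 and 6.60 ± 0.56 for Tmod1, and Add3 was at -3.23 ± 0.18 (limma adjusted p = 1.5e-09). Epb41 changed by 5.80 on the red cell path and 0.27 on the granulocyte path, while Add3 was at -1.38 and 1.85. Ank1, Epb42, Tmod1 and Dmtn were not well above background on any GMP array, so their path differences rest on signals that give only a bound. Relative to the spike-in spots, where the median of all features was -4.87, Epb41 was at 0.62 and Tmod1 at 1.69, neither of which passed. Ank1, Add1, Add2 and Dmtn had the opposite sign there, and of these Add1 (-3.18) and Add2 (-2.47) passed.

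**Figure D3:**
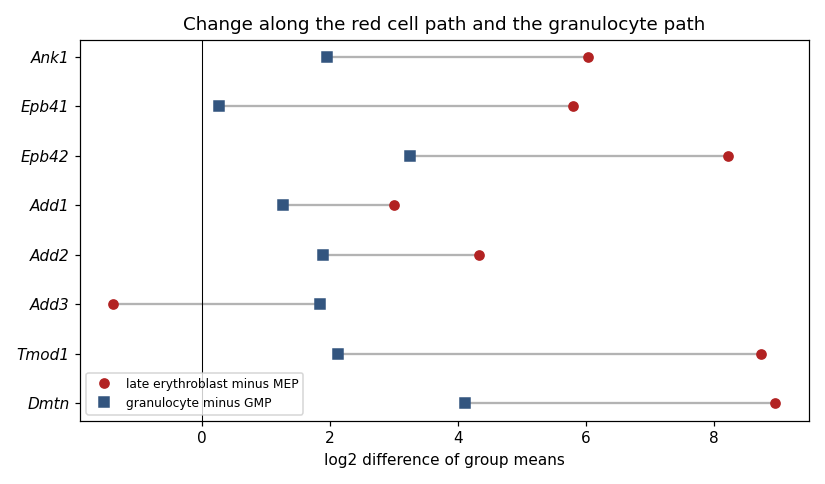
Log2 difference of late erythroblasts minus MEP (red circles) and of granulocytes minus GMP (blue squares) for the 8 tested genes. Both symbols lie right of 0 except for Add3, at -1.38 on the red cell path and 1.85 on the granulocyte path. The blue squares of Ank1, Epb42, Tmod1 and Dmtn rest on such GMP signals.

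Over the 7 cell types, all 8 tested genes varied in the moderated F test, as did 95.6% of all features. The order of levels fell into a few shapes. For Ank1, Epb42 and Add2, both erythroblast stages came first, then CMP and MEP, with no step within either pair that passed the test, and then granulocytes, with LSK cells and GMP last. LSK cells were above GMP for Add2 (1.12, adjusted p = 0.0032), the step did not pass for Ank1 (0.66, adjusted p = 0.07), and Epb42 was not well above background in either. Epb42 in MEP stood 0.21 above granulocytes, which did not pass (adjusted p = 0.46). For Tmod1 the erythroblasts were followed by MEP and granulocytes, 0.08 apart (adjusted p = 0.85), and the steps below them were not tested. Dmtn followed with CMP above granulocytes by 0.92 (adjusted p = 0.0017) and granulocytes and MEP not told apart (0.38, adjusted p = 0.14). Epb41 had 2 erythroblast levels and 5 other means between 4.83 and 5.24, and no step between neighbours among these 5 passed. Further apart in that order, CMP, MEP and granulocytes were above LSK cells (limma adjusted p = 0.042, 0.017 and 0.011). Add1 had both erythroblast stages first, granulocytes next at 6.61, 0.62 above MEP (adjusted p = 6.9e-05), and MEP, CMP, LSK cells and GMP from 5.99 down to 5.34 with no step between neighbours that passed. Add3 ran the other way, with granulocytes first, MEP, GMP, CMP and LSK cells level between 2.04 and 1.81, and late and then early erythroblasts last.

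The profiles of Epb42 and Dmtn over the 7 means were close to each other, with r = 0.998, and each took place 2 among 8774 genes in likeness to the other. The other genes most like Epb42 were 1300017J02Rik (r = 0.9989) and Serinc5 (0.9977), and the gene most like Dmtn was Redrum (0.9992). Ank1 was most like Sh3tc2 (0.9987), the Rh gene Rhd (0.9985) and Phyhip (0.9984), and Add2 most like Ermap (0.9983), the heme pathway gene Blvrb (0.9980) and Slc38a5 (0.9972). These correlations describe 7 means that share arrays, some of them below the background limit for Ank1, Epb42, Dmtn and Tmod1, and the large gap between erythroblasts and the other cells sets much of each value. Epb41, for which 170 genes had r over 0.99, was most like Zfp341 (0.9993), Slc4a9 (0.9992) and Olfr1307 (0.9992). Tmod1 was most like Tnnc2 (0.9966), Add1 most like Pcsk1n (0.9964) and Add3 most like Cd9 (0.9978). Add3 had r of -0.759 with Ank1 and -0.736 with Epb41.

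Epb41 had 3 probes and Add1 had 2, and the other 7 genes had 1 each. Both dimmer Epb41 probes also rose in late erythroblasts compared with MEP, by 8.35 ± 0.38 and 8.08 ± 0.25, against 5.80 ± 0.12 for the brightest one. In CMP compared with LSK cells they were at 0.17 and 0.18 and did not pass. The size of the erythroblast change therefore differs by probe, and this difference was not tested. In granulocytes compared with GMP the dimmer Epb41 probes were at 0.12 ± 0.43, which did not pass, and 0.84 ± 0.29 (limma adjusted p = 0.018), which did. The dimmer Add1 probe rose by 3.15 ± 0.16 in late erythroblasts compared with MEP, close to the 3.00 ± 0.10 of the brightest. In late compared with early erythroblasts it was higher, at 0.49 ± 0.18 (limma adjusted p = 0.029), where the brightest was at 0.07 and did not pass. In GMP the probes disagreed: compared with CMP the dimmer probe was higher, at 0.82 ± 0.18 (adjusted p = 0.0049), where the brightest was at -0.35. In MEP compared with GMP it was at -0.95 ± 0.18 (adjusted p = 8.9e-04), where the brightest was at 0.65. The Add1 calls that involve GMP thus hold for 1 probe only, as does the granulocyte difference of 1.27, where the dimmer probe was at -0.22 ± 0.18 (adjusted p = 0.31).

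**Figure D4:**
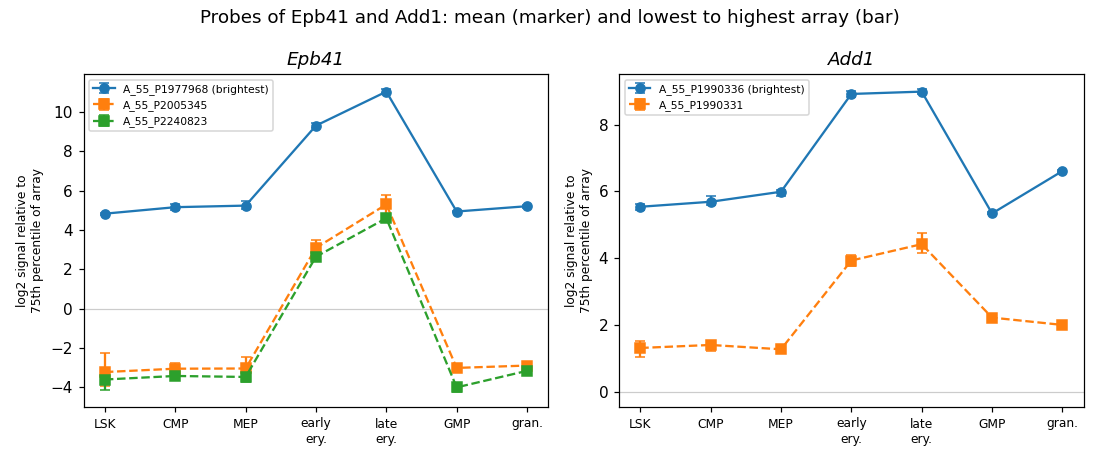
Probes of Epb41 (left) and Add1 (right) over the 7 cell types (y axis: log2 signal relative to the array's 75th percentile; marker, mean; bar, lowest to highest array). All probes of both genes are higher in erythroblasts, while the dimmer Add1 probe is higher in GMP than in CMP (0.82) and the brightest is not (-0.35).

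The other genes of the skeleton and its anchors, 23 in all, were mixed in direction. In early erythroblasts, compared with MEP, 16 of 23 were higher and 6 lower, beside 43.6% and 37.8% of all features, with a median of 2.99 beside 0.22 over all features. Slc4a1, the membrane anchor of ankyrin, rose by 12.46 ± 0.24. In late erythroblasts, compared with early ones, 2 of 22 tested were higher and 8 lower, beside 59.9% of all features called, with a median of -0.20 beside -0.17. The tropomyosin gene Tpm1, whose product lies along the short actin filaments, rose by 1.27 ± 0.14, and the blood group genes Xk and Icam4 were at -1.17 ± 0.31 and -1.03 ± 0.25. In CMP, compared with LSK cells, 14 of 23 were higher and 1 lower, beside 36.7% of all features called, led by Kel (4.73 ± 0.21), Rhd (4.65 ± 0.22) and Rhag (4.61 ± 0.31). In GMP, compared with CMP, 1 was higher and 8 were lower, beside 18% called, and in granulocytes, compared with GMP, 13 were higher and 4 lower, beside 66.6% called.

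Paralogs of the 9 genes, meaning relatives from the same protein families, were also mixed in direction. In early erythroblasts, compared with MEP, 5 of 14 tested were higher and 6 lower, beside 81.5% of all features called, with a median of -0.47 beside 0.22 over all features. Epb41l4b, a relative of Epb41, was at -6.04 ± 0.30, with 1 of 2 early erythroblast arrays well above background. The brain-type spectrin gene Sptbn4, on neither of these arrays well above background, was at least 4.06-fold lower, and the transglutaminase gene Tgm2 was at 3.54 ± 0.41. In CMP, compared with LSK cells, none of 16 was higher and 8 were lower, beside 36.7% of all features called, with Epb41l3 at -2.95 ± 0.24. Named after its value was seen, the general spectrin gene Sptbn1 was at -2.69 ± 0.21 in early erythroblasts compared with MEP. It was higher in late than in early erythroblasts, by 1.46 ± 0.21, and at -1.24 in late erythroblasts compared with MEP. Tmod3, the tropomodulin of many cell types, was counted above with the skeleton and anchor genes and named in the same way. It was at -2.64 ± 0.21 in early erythroblasts compared with MEP, beside 8.83 for Tmod1.

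**Figure D5:**
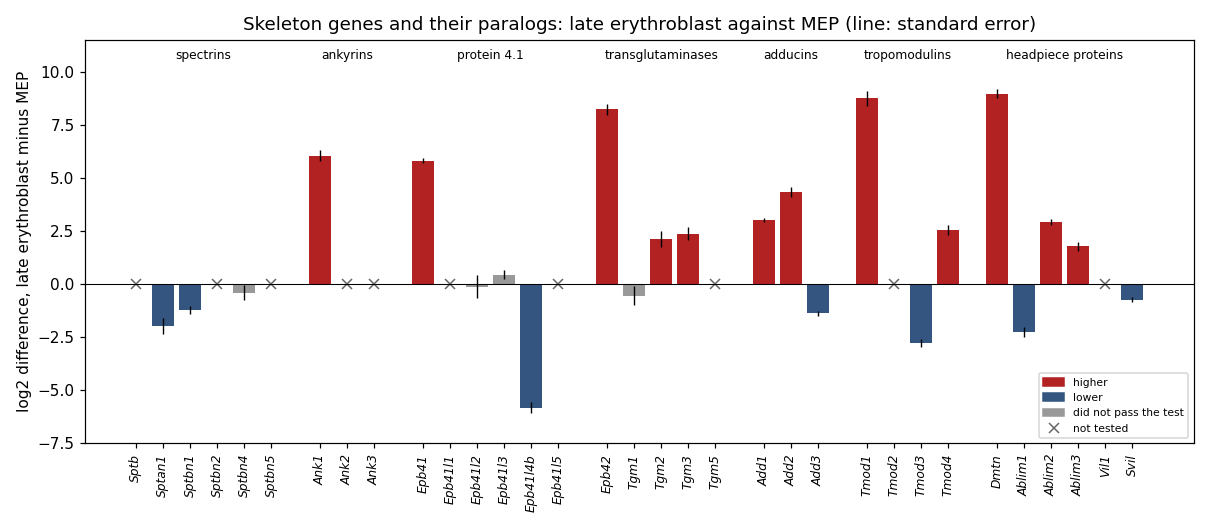
Log2 difference in late erythroblasts against MEP for the skeleton genes and their paralogs, grouped by protein family (line: standard error; red, higher; blue, lower; grey, did not pass the test; cross, not tested). Add1 (3.00) and Add2 (4.33) are higher and Add3 (-1.38) lower within the adducins. Tmod1 (8.73) and Tmod4 (2.53) are higher and Tmod3 (-2.80) lower within the tropomodulins, and Tmod2 was not tested. Sptan1, Epb41l4b and Ablim1 were not well above background on any late erythroblast array, so their bars give only a bound.

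The sequence before the gene start is shown for the adducins, which moved in opposite directions, and for Epb42, as an example of the members that were highest in erythroblasts. The RefSeq promoter table used here (GRCm38.p6) matched 7 of the 9 genes, with 11 start sites, and the 250 bases before each were searched on both strands for a GATA motif (AGATAA or AGATAG, or with another first letter TGATAA or TGATAG) and a KLF motif (CCNCNCCC). No GATA match overlapped a KLF match. The windows shown are chr2:121036878-121037127 on the minus strand for Epb42, and on the plus strand chr5:34573414-34573663 for Add1, chr6:86028431-86028680 for Add2 and chr19:53140193-53140442 for the first of 3 listed starts of Add3. They run 5′ to 3′, and capitals mark matches of either motif.
Epb42: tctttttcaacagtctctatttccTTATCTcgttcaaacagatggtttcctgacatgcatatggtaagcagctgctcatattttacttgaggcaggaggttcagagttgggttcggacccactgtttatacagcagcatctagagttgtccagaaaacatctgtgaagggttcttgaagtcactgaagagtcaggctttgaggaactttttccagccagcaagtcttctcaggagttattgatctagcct
Add1: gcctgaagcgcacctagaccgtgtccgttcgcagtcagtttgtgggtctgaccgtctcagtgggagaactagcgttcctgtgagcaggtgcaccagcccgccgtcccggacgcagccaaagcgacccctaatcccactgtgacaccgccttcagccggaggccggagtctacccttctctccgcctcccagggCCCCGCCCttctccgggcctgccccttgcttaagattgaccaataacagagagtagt
Add2: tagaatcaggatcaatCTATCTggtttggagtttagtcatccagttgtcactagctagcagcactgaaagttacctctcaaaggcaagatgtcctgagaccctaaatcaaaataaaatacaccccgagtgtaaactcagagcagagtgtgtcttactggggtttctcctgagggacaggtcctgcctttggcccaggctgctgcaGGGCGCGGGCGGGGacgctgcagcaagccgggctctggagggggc
Add3: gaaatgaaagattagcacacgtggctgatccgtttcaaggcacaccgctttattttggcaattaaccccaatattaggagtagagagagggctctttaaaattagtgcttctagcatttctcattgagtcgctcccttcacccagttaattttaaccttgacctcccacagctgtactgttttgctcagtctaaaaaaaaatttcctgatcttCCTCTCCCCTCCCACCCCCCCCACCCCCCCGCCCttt
A GATA match was found before 4 of the 11 starts and a KLF match before 8, where 26.5% and 45.9% of all 32851 promoter windows of the same length held one. Epb42 and Add2 each have 1 GATA match, 226 and 234 bases before the start, Add1 has none and 1 KLF match, and the Add3 start shown has 7 KLF matches, some overlapping, and no GATA match. Epb42 has no KLF match and Add2 has 2. Tmod1, also highest in erythroblasts and not shown, has 4 KLF matches and no GATA match. Another listed start of Add3 has a GATA match 19 bases before it. A match is a description of letters and no match says only that these letters are not in this window.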

How the data were processed

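Each of 19 custom Agilent arrays carried total RNA of 1 sample. Background subtraction, spot flags and intensity values came from Feature Extraction 11.5.1.1 run with protocol GE1_1105_Oct12 by the authors, on array annotation of build mm9, per the file headers. The authors' series table, with no normalization between arrays, repeated the intensity left after background subtraction and served as an alternative. From these values the log2 of the processed signal minus each array's 75th percentile was computed, without control spots and outlier flags; deposited log2 values were not used. Spots of 1 probe were averaged, and each of 38391 features took its brightest probe.

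A model of cell type means over all 19 arrays was fitted in limma 3.58.1 (R 4.3.3), with eBayes and Benjamini-Hochberg adjustment at 0.05. Testing required that all arrays of at least 1 group were flagged well above background, and a call that those of the higher group were. The interaction needed this in at least 1 of its 4 groups and was called on adjusted p alone. Members, gene lists, this filter and the comparisons were chosen with earlier results of these data known. Named were the 9 members, up to 3 called genes per other list and comparison with the largest differences, and the 3 genes most like each member, by Pearson r over the 7 means, among named genes with a standard deviation of at least 1; not all are reported here. Normexp correction (offset 50) used the median spot signal in place of the planned mean signal, which was not available. Replicate numbers are shared across groups, but the deviations of same-numbered samples correlated from -0.39 to 0.26, so they do not pair samples. The fit was tested on simulated data. The first version of that test missed its pass mark. It was replaced by a comparison of the changes recovered with the number expected. For arrays, the number of samples limits the precision.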

Additional observations from a re-analysis of the deposited data

Results flagged for a closer look

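Each of the 8 tested genes differed between the 2 maturation paths, by a test of the difference itself (limma interaction term, Benjamini-Hochberg adjusted). The change from MEP to late erythroblasts exceeded the change from GMP to granulocytes by 6.60 ± 0.56 for Tmod1, 5.53 ± 0.18 for Epb41, 4.96 ± 0.37 for Epb42, 4.85 ± 0.33 for Dmtn, 4.09 ± 0.38 for Ank1, 2.44 ± 0.36 for Add2 and 1.73 ± 0.15 for Add1 (log2 ± SE). For Add3 the difference was -3.23 ± 0.18. Adjusted p ranged from 6.9e-12 for Epb41 to 2.4e-05 for Add2, and 72.2% of all features passed the same test. Ank1, Epb42, Dmtn and Tmod1 were not well above background in GMP, so their granulocyte change, and with it this difference, depends on signals that give only a bound.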

How the results depend on the processing

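The 8 genes called in erythroblasts against MEP kept their direction and call in every setting tried except spike-in scaling. That scaling moved the median of all features to -3.27 in early erythroblasts against MEP, -4.78 in late erythroblasts against MEP, -4.33 in late erythroblasts against granulocytes and -4.87 for the path difference. With it, 5 genes were called in early erythroblasts against MEP and 0 in MEP against CMP (limma; 2 at an unadjusted p under 0.05). In late against early erythroblasts it called 1, Dmtn, lower at -1.52 and not called in the fit reported. For the path difference it called 3, of which Add3 kept its sign while Add1 and Add2 passed with the opposite sign. Spike-in scaling turned Add1 to -0.56 in early and -1.50 in late erythroblasts against MEP and -1.82 in late erythroblasts against granulocytes. The last 2 of these passed as lower (limma adjusted p = 0.0064 and 0.0011). It turned Add2 to -0.17 in late erythroblasts against MEP, and Add3 to -0.04 in late against early erythroblasts. The path difference turned to -0.82 for Ank1, -3.18 for Add1 (limma adjusted p = 0.00025), -2.47 for Add2 (limma adjusted p = 0.0055) and -0.06 for Dmtn. Relative to the median of all features, Add1 in late erythroblasts against MEP was at 3.27 with the main scaling and 3.28 with spike-in scaling.

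In CMP against LSK cells, quantile normalization gave -0.10 for Epb41 and -0.31 for Add1. The mean of all probes gave Add1 0.24 in GMP against CMP and -0.15 in MEP against GMP. In MEP against CMP, 1 gene was called in the fit reported, 2 with quantile normalization, the mean of all probes, slide as a fixed block or a variance trend, 3 with the percentile over detected probes or slide as a random block, and 0 with only the groups compared (limma; 3 at an unadjusted p under 0.05). In late against early erythroblasts, the percentile over detected probes gave 4. Leaving out 1 array at a time gave 1 to 2 genes in MEP against CMP, 4 to 5 in CMP against LSK cells, 4 in GMP against CMP, 6 to 7 in MEP against GMP and in granulocytes against GMP, 2 to 3 in late against early erythroblasts, and 8 to 9 in early erythroblasts against MEP. With replicate number as a block, 4 genes were called in GMP against CMP, since Add1 was lost (adjusted p = 0.079), and no other count of genes changed.

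Over all features, spike-in scaling against the fit reported called 1579 against 8878 in CMP against LSK cells, 25 against 1031 in MEP against CMP, 1482 against 4104 in GMP against CMP, 2627 against 7008 in MEP against GMP and 6210 against 15281 in granulocytes against GMP. Normexp called 1985 in MEP against CMP, and only the groups compared called 0 (4245 at an unadjusted p under 0.05). Without the filter on dim probes, 29158 against 18569 were called in early erythroblasts against MEP, 31705 against 19410 in late erythroblasts against MEP, 31751 against 19038 in late erythroblasts against granulocytes and 26979 against 17817 for the path difference. Of the calls, 63.3% were higher in CMP against LSK cells (32.2% with the percentile over detected probes, 51.5% after quantile normalization, 44.5% with spike-in scaling), 42.4% in MEP against CMP (63.1% with that percentile, 32.0% with spike-in scaling), 52.8% in GMP against CMP (42.2%, 35.9% and 16.6% with quantile normalization, that percentile and spike-in scaling) and 42.9% in MEP against GMP (54.9%, 66.3% and 80.1%). The share was 53.6% in early erythroblasts against MEP (3.1% with spike-in scaling), 36.9% in late against early erythroblasts (55.6% with that percentile, 2.1% with spike-in scaling), 45.9% in late erythroblasts against MEP (2.4% with spike-in scaling), 41.7% in granulocytes against GMP (52.8% and 68.4%), 46.9% in late erythroblasts against granulocytes (3.5%) and 51.0% for the path difference (1.0%, and 62.2% with normexp). Causes were not tested. Dim probes limit Sptb in all cell types, Tmod1, Epb42 and Dmtn in LSK cells and GMP, Ank1 in GMP, and Tmod1 also in CMP and granulocytes.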
